A study of Mus musculus with 39 samples.

Results

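Matrix glycoproteins and their regulators were followed in the gastrocnemius, a calf muscle, of mice carrying a tumour. The 10 genes were taken by name and matched by symbol to the identifiers of the count files: Fn1, Fbn1, Bgn, Lum, Postn, Sparc, Tnc, Thbs1, Ctgf and Timp1. All 10 were found among 46078 genes, Ctgf under its later symbol Ccn2, and all 10 were among the 14689 genes with enough reads to be tested. C57BL/6 mice were injected in the hind flank at 8 weeks of age with Lewis lung carcinoma cells, a mouse lung tumour line used as a model of cancer cachexia, or with PBS. Muscle was taken after 7, 14, 21 or 28 days of tumour, here weeks 1 to 4, and the study asked how muscle transcripts change as wasting develops. PBS, week 1 and week 4 have 8 libraries each and weeks 2 and 3 have 7 each, with week 3 replicate 2 not analysed here. The labels do not say which animal each sample came from, so a p-value here measures sample-to-sample spread, which may be technical. They give 0 days of tumour for PBS and no age at collection, so the effects of age and of tumour time cannot be told apart. Markers of skeletal muscle fibres added up to between 65100 and 210000 CPM (counts scaled to the size of each library) in every library, as the labelled tissue would have.

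The space between muscle fibres is filled by a matrix of collagen fibrils in which glycoproteins and proteoglycans bind collagens, growth factors and cells. Fibronectin and fibrillin build the scaffold, biglycan and lumican coat collagen, and matricellular proteins such as periostin, SPARC, tenascin-C, thrombospondin-1 and CTGF act on cells more than on the structure. In skeletal muscle these genes are expressed mainly by fibroblasts and fibro-adipogenic progenitors, and thrombospondin-1 also by endothelial cells, macrophages and platelets. In bulk muscle, fewer cells of a type and less RNA per cell cannot be told apart.

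Reads in genes numbered 13356756 to 24801565 per library. The 4 sequencing lanes, read from the names of the files, were spread unevenly: PBS was on lanes 5 and 6, week 4 on lanes 2 and 4, and no lane held both. Within weeks 1 to 3, where lane 2 can be compared with the others, 24.8% of 13974 tested genes differed in lane 2 libraries. Of the 10 matrix genes 1 did, Fn1, which was higher by 0.71 ± 0.23 (log2, SE; edgeR quasi-likelihood test, adjusted p = 0.025). PBS replicate 1 stood apart from the other 7 PBS libraries, so week 4 values against PBS are given with and without it. Its macrophage and monocyte markers added up to 1230 CPM against 103 to 243 in the others, its collagen genes to 2130 against 581 to 1450, and its cell cycle genes to 134 against 46 to 61.7.

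Promoter sequences from RefSeq (GRCm38.p6, the bases before each start) were held for 6 of the 10 genes, with 8 promoters in all, and are shown because the members' levels were correlated across libraries. Each is written 5′ to 3′ in the direction of the gene, 250 bases, with capitals for any of 4 motifs searched on both strands: a TEAD site (GGAATG), an AP-1 site (TGANTCA), a GC box (GGGCGG) and a TATA box (TATAAA). The second Postn promoter, chr3:54360857-54361106 on the plus strand, belongs to the member of widest range over the libraries after Timp1. The Timp1 promoter is chrX:20869916-20870165, plus strand, and the Bgn promoter chrX:73483351-73483600, plus strand.
Postn: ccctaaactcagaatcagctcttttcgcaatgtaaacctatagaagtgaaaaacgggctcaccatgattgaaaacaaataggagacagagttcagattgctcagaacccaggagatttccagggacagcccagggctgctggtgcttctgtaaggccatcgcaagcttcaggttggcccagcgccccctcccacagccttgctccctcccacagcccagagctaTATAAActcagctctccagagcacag
Timp1: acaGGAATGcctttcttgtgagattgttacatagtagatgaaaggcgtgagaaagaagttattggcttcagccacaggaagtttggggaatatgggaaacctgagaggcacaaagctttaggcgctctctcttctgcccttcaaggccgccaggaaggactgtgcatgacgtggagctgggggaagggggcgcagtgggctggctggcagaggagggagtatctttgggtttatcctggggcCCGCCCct
Bgn: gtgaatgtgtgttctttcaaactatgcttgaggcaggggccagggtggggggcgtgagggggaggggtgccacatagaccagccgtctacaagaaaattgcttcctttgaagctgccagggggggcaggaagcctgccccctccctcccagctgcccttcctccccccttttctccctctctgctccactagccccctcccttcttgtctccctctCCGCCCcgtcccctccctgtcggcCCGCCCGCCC

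The Postn promoter holds a TATA box 26 to 21 bases before the start, the Timp1 promoter a TEAD motif at 247 to 242 and a GC box at 8 to 3, and the Bgn promoter 3 GC boxes, of which the 2 nearest the start overlap. Over the 8 promoters, 5 held a GC box (of Fbn1, Tnc, Timp1 and Bgn), 3 a TATA box (of Postn and Tnc), 1 a TEAD motif and 0 an AP-1 motif. Both Tnc promoters overlap and hold the same GC box and the same TATA box, which these counts take for each promoter. Among 32851 promoters of the same length, the shares were 32.7% for the GC box, 12.4% for the TATA box, 12.6% for the TEAD motif and 6.75% for the AP-1 motif. Such matches describe letters in a window and were not tested as binding sites.

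Levels between genes were compared per kilobase of exon (CPM per kb, mean ± SD over 38 libraries). Sparc was the most abundant, at 66.8 ± 17.7, and its lowest library, at 38, lay above the highest of any other member. Then came Lum at 10.6 ± 4.63, Bgn at 7.94 ± 4.29, Ctgf at 6.47 ± 3.28, Fn1 at 6.42 ± 3.19, Fbn1 at 3.29 ± 1.62, Thbs1 at 2.49 ± 2.42, Postn at 1.6 ± 2.92, Timp1 at 1.1 ± 1.86 and Tnc at 0.578 ± 0.554. Below Sparc, each gene and the next in this order differed by less than their spread. On the scale of CPM, from here on, the ratio of the highest to the lowest library was 3.4 for Sparc, 90.5 for Postn and 196 for Timp1, whose lowest library held 1 read.

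**Figure D1:**
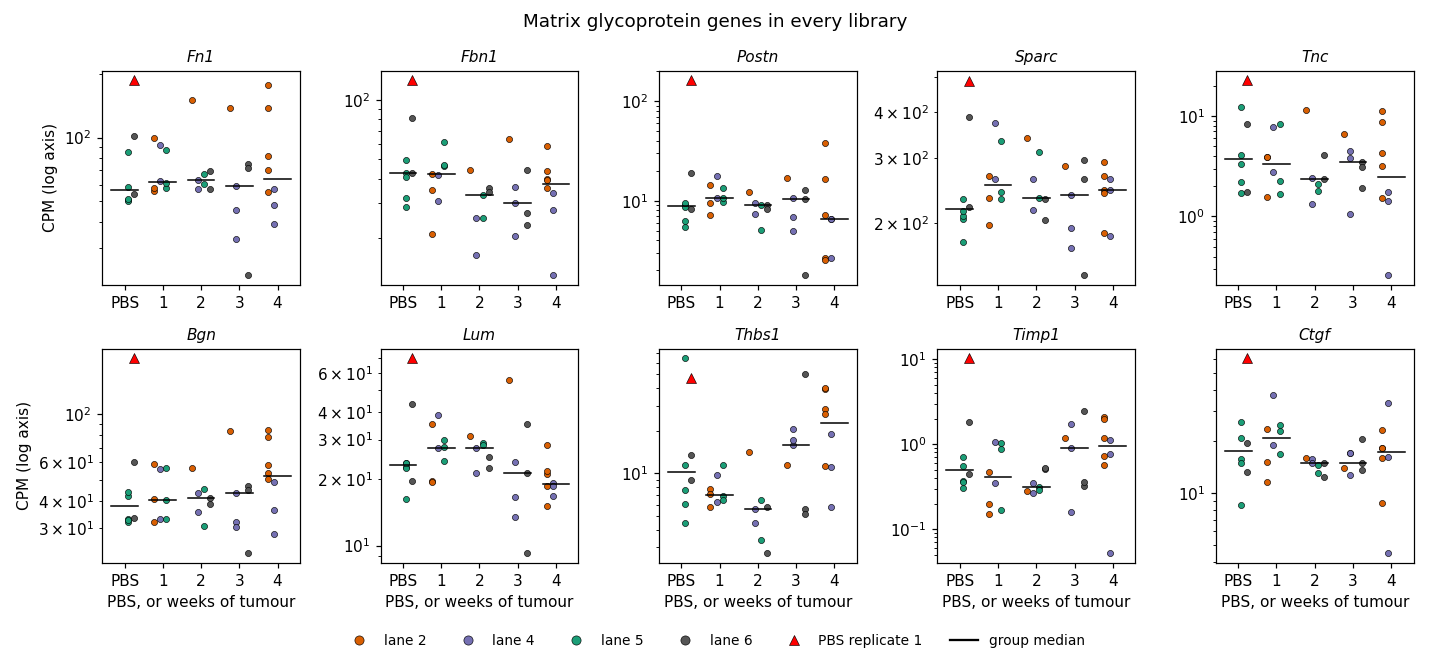
Level of each gene in every library (CPM, log axis) for PBS and weeks 1 to 4 of tumour; points are libraries coloured by sequencing lane, bars are group medians and the red triangle is PBS replicate 1. PBS replicate 1 was the highest PBS library for every gene but Thbs1, and all groups overlapped.

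Against PBS, 0 of the 10 genes passed the test (edgeR quasi-likelihood, Benjamini-Hochberg adjusted p under 0.05 over all genes tested) at week 1, 2, 3 or 4. Over all genes, 0.0613% were called at week 1, 0% at week 2, 0.347% at week 3 and 29.4% at week 4. At an unadjusted p under 0.05 there were 3, 5, 2 and 3 members, and DESeq2 and limma voom also called 0 of 10 at each week. The members' median log2 fold changes were -0.42, -0.74, -0.46 and -0.49 over these weeks, beside medians of -0.02, -0.02, -0.01 and -0.02 over all genes tested. The medians without PBS replicate 1 were 0.15, -0.17, -0.04 and 0.08, and 0 of 10 were called at each week. With a lane 2 term the medians were -0.57, -0.76, -0.54 and -0.68. The 4 comparisons share the same PBS libraries. In all 100 pairings of a member with 2 groups, the ranges of the groups overlapped. The same was not counted over all genes, so it does not set the members apart.

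**Figure D2:**
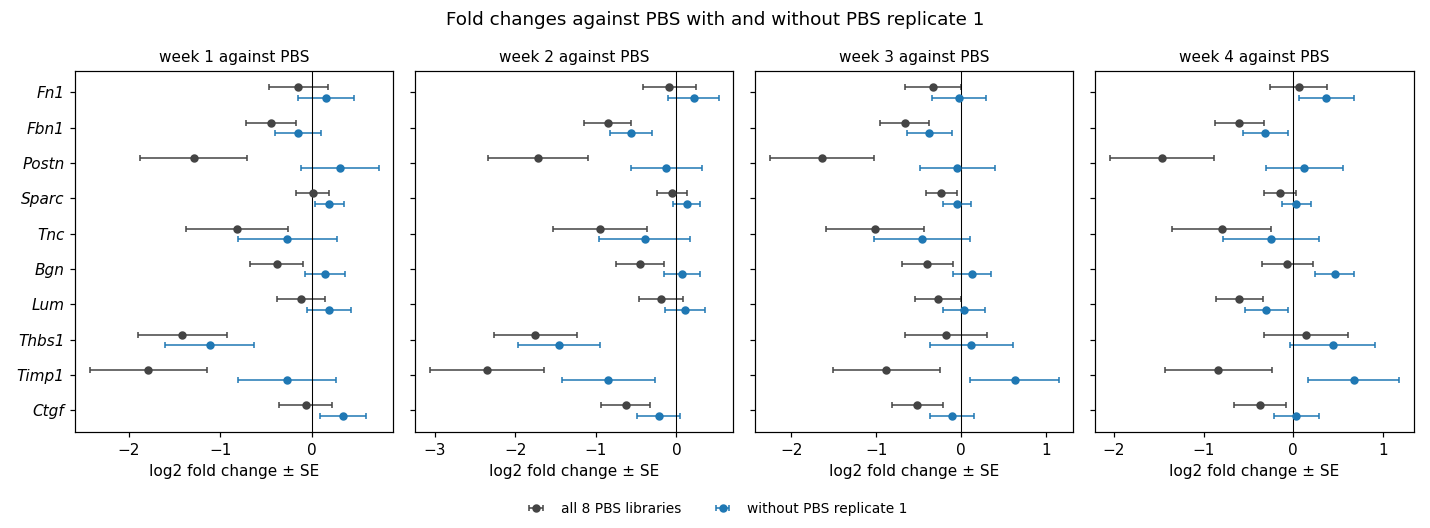
Log2 fold changes of the 10 genes against PBS (± SE, edgeR) at weeks 1 to 4, with all 8 PBS libraries (grey) and without PBS replicate 1 (blue). At week 4, 8 of 10 values lay below 0 with all libraries and 3 of 10 without PBS replicate 1.

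Of the scaffold proteins, Fn1 encodes fibronectin, which links matrix fibres to integrins (ENSMUSG00000026193, chromosome 1, 71585520 to 71653200, minus strand, GRCm38). Its lowest, median and highest libraries were at 50.2, 56.4 and 186 CPM in PBS, 55.9, 61.9 and 100 at week 1, and 57, 63.2 and 150 at week 2. They were at 22.4, 59.3 and 138 at week 3, and 39.1, 63.9 and 177 at week 4. The medians lay close together. The range was wider at weeks 3 and 4 than at weeks 1 and 2, but not clearly wider than in PBS. The high libraries of weeks 2, 3 and 4 were all on lane 2. At week 4 the log2 fold change against PBS was 0.06 ± 0.32 (95% interval -0.58 to 0.71, adjusted p = 0.9), 0.37 ± 0.30 without PBS replicate 1, and -0.55 with a lane 2 term.

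Fbn1 encodes fibrillin-1, the backbone of microfibrils that hold latent TGF-β (ENSMUSG00000027204, chromosome 2, 125300594 to 125507993, minus strand). Its values were 28.6, 42.7 and 126 CPM in PBS, 21, 42.1 and 61 at week 1, 16.3, 33.1 and 44.4 at week 2, 20.3, 30.1 and 63.7 at week 3, and 12.9, 37.6 and 58.7 at week 4 (lowest, median, highest). Medians of weeks 2 to 4 lay below that of PBS, within overlapping ranges. The week 4 value was -0.60 ± 0.28 (adjusted p = 0.094), and -0.31 ± 0.25 without PBS replicate 1. Of the exon bases of Fbn1, 20.1% overlap exons of Gm9913 on the other strand, and for the strand setting of the counting the sources used here give nothing.

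Of the collagen-binding proteoglycans, Bgn encodes biglycan, which also signals through Toll-like receptors (ENSMUSG00000031375, chromosome X, 73483602 to 73495933, plus strand). It stood at 32, 37.8 and 179 CPM in PBS, 31.9, 40.5 and 58.8 at week 1, 30.7, 41.1 and 56.3 at week 2, 23.1, 43.6 and 83.2 at week 3, and 28.2, 51.9 and 84.1 at week 4. Its medians were highest at week 4 and its highest single library was in PBS. The week 4 log2 fold change was -0.06 ± 0.29 (adjusted p = 0.89), and 0.46 ± 0.22 (adjusted p = 0.1) without PBS replicate 1.

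Lum encodes lumican, which spaces collagen fibrils (ENSMUSG00000036446, chromosome 10, 97565128 to 97572703, plus strand). Its values were 16.2, 23 and 69.5 CPM in PBS, 19.4, 27.6 and 38.6 at week 1, 21.3, 27.4 and 31.2 at week 2, 9.25, 21.3 and 55.8 at week 3, and 15.1, 18.8 and 28.3 at week 4. Week 4 had the lowest median and a narrow range that lay within those of the other groups or overlapped them. It was at -0.60 ± 0.26 against PBS (adjusted p = 0.078), -0.30 ± 0.24 without PBS replicate 1 (adjusted p = 0.34) and -0.69 without PBS replicate 7 (adjusted p = 0.048). It was at -0.48 ± 0.26 against week 1 (adjusted p = 0.18) and -0.41 ± 0.27 against week 2 (adjusted p = 0.27). In the authors' deposited tables Lum is listed as lower at week 4 against week 1 (-0.46, adjusted p = 0.02) and week 2 (-0.40, adjusted p = 0.019). Those tables hold 3336 and 3388 genes.

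Of the matricellular genes, Postn encodes periostin, which cross-links collagen and is induced by TGF-β (ENSMUSG00000027750, chromosome 3, 54361109 to 54391037, plus strand). It was at 162 CPM in PBS replicate 1 and between 5.47 and 19.1 in the other 7, 17 times their mean. The lowest, median and highest libraries were at 7.27, 10.7 and 17.7 at week 1, 5.08, 9.12 and 12.3 at week 2, 1.79, 10.4 and 16.9 at week 3, and 2.56, 6.53 and 38.2 at week 4, against a PBS median of 8.92. Week 4 thus held 3 libraries under 3 CPM and, in replicate 3, the highest library outside PBS replicate 1. Log2 fold changes against PBS were -1.29 ± 0.58, -1.72 ± 0.62, -1.64 ± 0.61 and -1.47 ± 0.58 at weeks 1 to 4 (adjusted p = 0.54, 0.45, 0.32 and 0.053). They were 0.30, -0.13, -0.05 and 0.12 without PBS replicate 1. With all PBS libraries and without week 4 replicate 3 the week 4 value was -2.17 (adjusted p = 0.0085).

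Sparc encodes osteonectin, a collagen chaperone (ENSMUSG00000018593, chromosome 11, 55394500 to 55423183, minus strand). It varied least, at 177, 218 and 489 CPM in PBS, 197, 254 and 374 at week 1, 204, 234 and 341 at week 2, 144, 238 and 296 at week 3, and 184, 246 and 293 at week 4. Its week 4 log2 fold change was -0.15 ± 0.18, with a 95% interval from -0.51 to 0.21 (adjusted p = 0.55), and 0.03 ± 0.16 without PBS replicate 1. Tnc encodes tenascin-C, which is known from injured muscle and tendon (ENSMUSG00000028364, chromosome 4, 63959785 to 64047015, minus strand). It was low and variable, at 1.7, 3.71 and 22.5 CPM in PBS, 1.56, 3.32 and 8.28 at week 1, 1.32, 2.38 and 11.5 at week 2, 1.06, 3.48 and 6.59 at week 3, and 0.261, 2.47 and 11.3 at week 4. Its log2 fold changes were -0.82 ± 0.55, -0.95 ± 0.58, -1.02 ± 0.58 and -0.80 ± 0.55 at weeks 1 to 4 (adjusted p = 0.69, 0.72, 0.53 and 0.28). They were -0.27, -0.40, -0.46 and -0.25 when PBS replicate 1 was left out.

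Ctgf encodes connective tissue growth factor, a target of TGF-β and of YAP and TEAD (ENSMUSG00000019997, chromosome 10, 24595442 to 24598683, plus strand). It stood at 8.59, 17.6 and 60.7 CPM in PBS, 11.6, 21.1 and 37.3 at week 1, 12.5, 14.9 and 16 at week 2, 12.7, 14.9 and 20.7 at week 3, and 4.49, 17.3 and 33.5 at week 4. Weeks 2 and 3 were tight and week 4 was wide, with its lowest library in replicate 7 and its highest in replicate 6. The week 4 log2 fold change was -0.37 ± 0.29 (adjusted p = 0.34), and 0.03 ± 0.25 without PBS replicate 1. Exons of Gm15270 on the other strand cover 23.2% of its exon bases.

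In the edgeR fit of all libraries Thbs1 was the 1 member called between groups. With limma voom Bgn was also called at week 4 against week 2 (0.55, adjusted p = 0.036), where 44.1% of all genes were. In a fit of those groups alone Lum and Timp1 were also called, beside 18.1% of all genes. Thbs1 encodes thrombospondin-1, which activates latent TGF-β and restrains the growth of capillaries (ENSMUSG00000040152, chromosome 2, 118111876 to 118127133, plus strand). The lowest, median and highest libraries were at 4.47, 10.2 and 64.5 CPM in PBS, 5.8, 7 and 11.5 at week 1, 2.73, 5.57 and 14.1 at week 2, 5.13, 15.7 and 50.5 at week 3, and 5.79, 22.6 and 39.9 at week 4. Week 4 lay highest by median, with 5 of its 8 libraries above every library of week 1 and 5 above every library of week 2. Thbs1 rose 3.71-fold from week 2 to week 4 (log2 fold change 1.89 ± 0.52, adjusted p = 0.0094, edgeR), where 23.6% of all genes were called and 1 of 10 members was. It rose 2.94-fold from week 1 to week 4 (1.56 ± 0.49, adjusted p = 0.02), where 22.6% of all genes and 1 of 10 members were called. These calls held in 15 of 15 and 16 of 16 fits with 1 library of the compared groups left out.

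Lane and week overlapped in this comparison, since 5 of the 8 week 4 libraries were on lane 2. With a lane 2 term Thbs1 was at 1.60 ± 0.54 against week 2 and 1.28 ± 0.51 against week 1, and was not called (adjusted p = 0.051 and 0.067). Without the lane 2 libraries, which leaves 3 of week 4, the values were 1.33 and 0.55 (adjusted p = 0.51 and 0.82). On lane 2 alone the week 1 libraries were at 5.8, 7.73 and 7.08 CPM, the week 2 library at 14.1, the week 3 library at 11.5, and those of week 4 at 39.4, 11.2, 39.9, 28.3 and 26.1. On lane 4 they were at 6.23 and 9.74 at week 1, 4.49 and 5.57 at week 2, 15.7, 20.6 and 17.2 at week 3, and 19, 5.79 and 11 at week 4. On lane 2, 4 of the 5 week 4 libraries thus lay above every earlier library of that lane, and on lane 4 week 3 lay above weeks 1 and 2 while week 4 lay above week 2 and overlapped week 1.

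Against PBS, Thbs1 was at -1.42 ± 0.48, -1.75 ± 0.52, -0.18 ± 0.48 and 0.14 ± 0.47 at weeks 1 to 4, without a call (adjusted p = 0.43, 0.33, 0.92 and 0.85). Without PBS replicate 1 it was at -1.12 and -1.46 at weeks 1 and 2 and at 0.44 ± 0.47 at week 4. PBS replicates 3 and 1 stood at 64.5 and 46.9 CPM and the other 6 between 4.47 and 13.4. Against week 3 the week 4 value was 0.32 ± 0.48 (adjusted p = 0.71), where 0 of 10 members and 3.51% of all genes were called. Week 3 stood at 1.57 ± 0.52 above week 2 and 1.23 ± 0.50 above week 1 on the log2 scale, without a call (adjusted p = 0.24 and 0.26). Leaving out week 3 replicate 1 gave 1.05 and 0.72. Those comparisons called 0 of 10 members with 1 at an unadjusted p under 0.05 in each, and 0.429% and 1.06% of all genes. Week 2 against week 1 called 0 members and 0.0477% of all genes. By the F test for any difference among the 5 groups, Thbs1 was called (adjusted p = 0.012), as were 21.9% of all genes, and no other member was, with Timp1 at 0.054 and Postn at 0.068. In the authors' deposited tables Thbs1 is listed as higher at week 4 against week 1 (1.30, adjusted p = 3e-05) and week 2 (1.45, adjusted p = 6.9e-05). Those tables hold 3336 and 3388 genes. Against PBS the authors' tables hold 44, 100, 22 and 4313 genes at weeks 1 to 4, and for week 4 against week 3 they hold 476. The tables against PBS and week 3 list 0 of the 10 members.

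**Figure D3:**
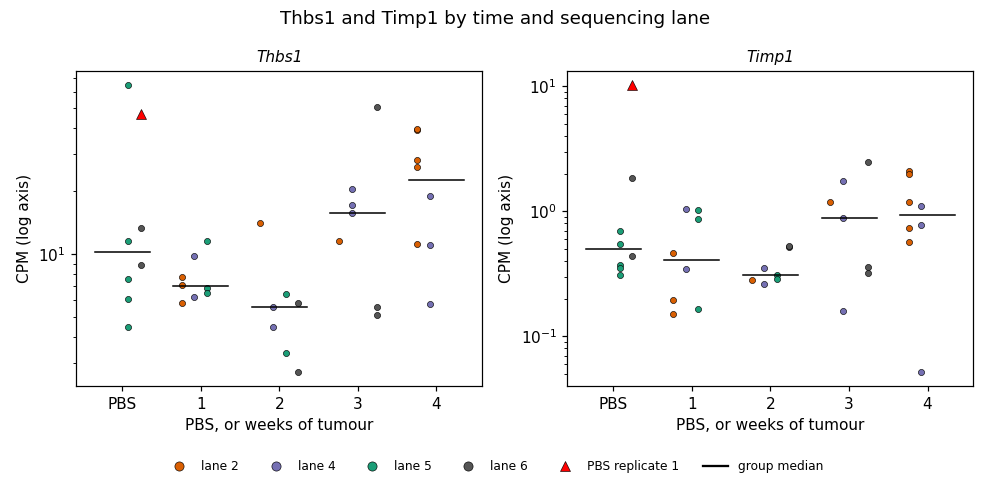
Thbs1 and Timp1 in every library (CPM, log axis) by time and sequencing lane; bars are group medians and the red triangle is PBS replicate 1. The Thbs1 median was 5.57 at week 2 and 22.6 at week 4, with the 4 highest week 4 libraries on lane 2.

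Timp1 encodes an inhibitor of matrix metalloproteinases that is induced in inflammation (ENSMUSG00000001131, chromosome X, 20870166 to 20874735, plus strand, within the gene body of Syn1 on the other strand, with no shared exon bases). It was at 10.2 CPM in PBS replicate 1 and 0.308 to 1.83 in the other PBS libraries, with a PBS median of 0.495. Its lowest, median and highest libraries were at 0.151, 0.407 and 1.05 at week 1, 0.264, 0.312 and 0.529 at week 2, 0.159, 0.89 and 2.49 at week 3, and 0.0522, 0.939 and 2.11 at week 4, so that 7 of 8 week 4 libraries lay above every week 2 library. The log2 fold change of week 4 against week 2 was 1.52 ± 0.71 (adjusted p = 0.11) in the fit of all libraries. It was 1.52 ± 0.54 and called without PBS replicate 1 (adjusted p = 0.038), and 1.5 and not called with a lane 2 term (adjusted p = 0.22). In the authors' deposited table for the comparison of weeks 4 and 2, which holds 3388 genes, Timp1 is listed as higher (1.05, adjusted p = 0.014). Against PBS its values were -1.78 ± 0.64, -2.35 ± 0.71, -0.88 ± 0.63 and -0.84 ± 0.60 at weeks 1 to 4 (adjusted p = 0.45, 0.33, 0.62 and 0.3), and -0.27, -0.85, 0.63 and 0.67 without PBS replicate 1. Counts were few, so single reads weigh on the lowest values.

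Across the 38 libraries most members were correlated. Of 45 pairs, 44 had a positive Pearson's r of log2 CPM and 39 passed a permutation test after adjustment over the 45 pairs. With Spearman's rho 32 passed. The permutations moved libraries freely across groups and lanes. Pairs of other genes were not counted, so these counts do not set the members apart. The 21 pairs among Fn1, Fbn1, Postn, Sparc, Tnc, Bgn and Lum, a grouping made after the values were seen, had r from 0.46 to 0.88. They ranged from 0.34 to 0.89 without PBS replicate 1. Within lanes 2, 4, 5 and 6 (10, 10, 10 and 8 libraries) the medians of these 21 were 0.56, 0.65, 0.52 and 0.90. Fn1 and Bgn were the closest pair, with r = 0.88 and rho = 0.86 (permutation p = 1e-05 for each, the smallest that 100000 permutations can give, adjusted p = 3.2e-05 and 0.00011). Without the 2 libraries farthest from the Fn1 median r was 0.87, and within lanes 2, 4, 5 and 6 it was 0.80, 0.83, 0.78 and 0.93.

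Thbs1 stood partly outside this pattern, though 5 of its 9 pairs passed by r and 5 by rho. For Timp1 these counts were 7 and 4. The r of Thbs1 was 0.54 with Tnc, 0.44 with Bgn, 0.42 with Ctgf, 0.36 with Fbn1 and 0.245 with Fn1. It was 0.11 with Sparc, 0.14 with Postn and -0.12 with Lum (permutation p = 0.51, 0.38 and 0.49), and 0.63 with Timp1 (rho = 0.62, permutation p = 6e-05 for each, adjusted p = 0.00014 and 0.00024). The last was 0.64 without the 2 libraries farthest from the Thbs1 median, and 0.76, 0.49, 0.43 and 0.87 within lanes 2, 4, 5 and 6. Pairs with Ctgf were positive over all libraries (r from 0.38 to 0.56), but within lane 2 their median was -0.08 and 4 of 9 were positive. The values share the scaling of each library.

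**Figure D4:**
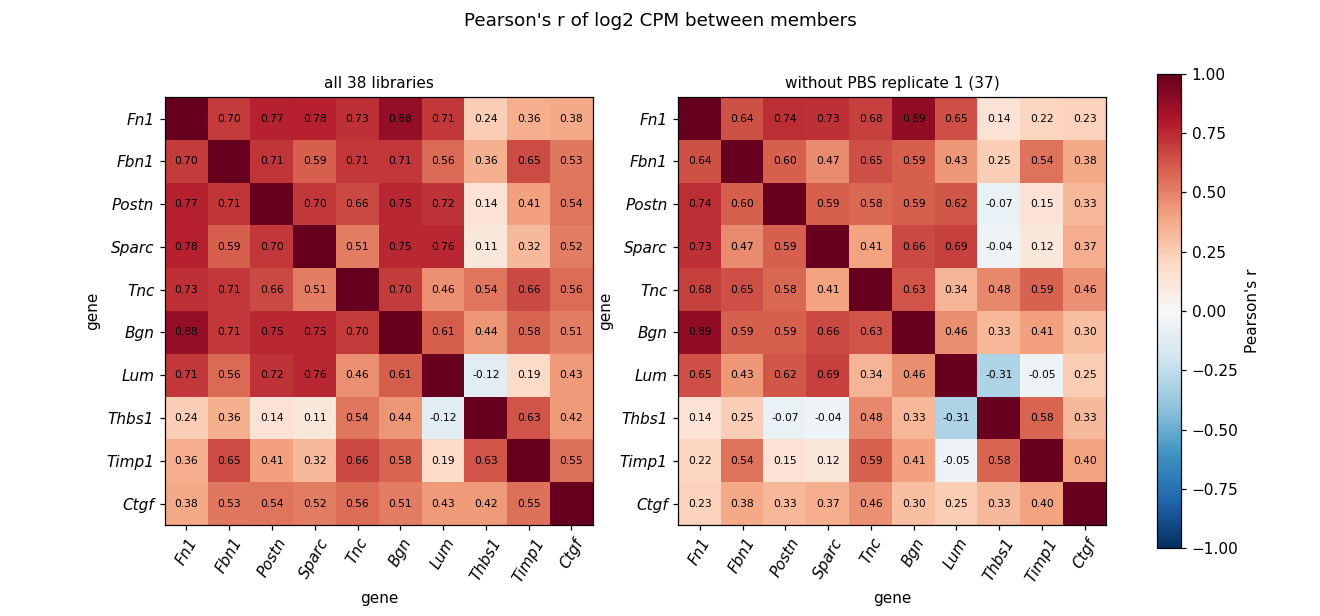
Pearson's r of log2 CPM between members over all 38 libraries (left) and without PBS replicate 1 (right); red is positive and blue negative. Fn1 and Bgn had the highest value (0.88), and the rows of Thbs1 and Lum met at -0.12, or -0.31 without PBS replicate 1.

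Some libraries were high or low for many members at once. Week 2 replicate 3 was the highest of week 2 for 9 of 10 members, and week 3 replicate 8 the highest of week 3 for 6, both on lane 2. Week 3 replicate 1 was the lowest of all libraries for Fn1, Postn, Sparc, Bgn and Lum, at 22.4, 1.79, 144, 23.1 and 9.25 CPM, while its Thbs1 (50.5) and Timp1 (2.49) were the highest of week 3. Its neutrophil markers added up to 99.8 CPM, within a week 3 range of 3.65 to 151. Its fibroblast markers added up to 437 CPM and its fibre markers to 65100 CPM, each the lowest of all libraries. Week 4 replicate 7 was the lowest of week 4 for 7 members. The part of these markers in the members' levels was not tested.

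**Figure D5:**
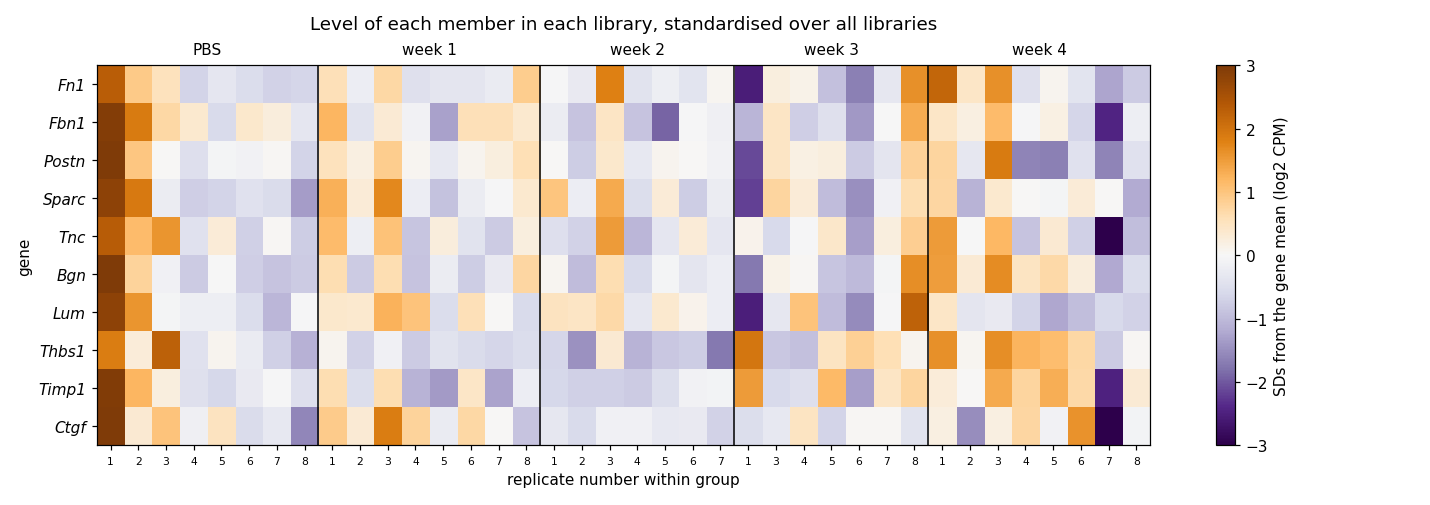
Level of each member in each library as SDs from the gene's mean over 38 libraries (log2 CPM), with libraries ordered by group and replicate number. PBS replicate 1 is above the mean for all 10 members, and week 3 replicate 1 is low for most members but high for Thbs1 and Timp1.

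The 5 other genes most like the mean standardised profile of the members, among 9034 named genes of at least 5 CPM over 38 libraries, were Adcy7 (r = 0.88), an adenylate cyclase, Col5a2 (0.86), a chain of fibrillar collagen V, Fstl1 (0.86), a secreted follistatin-like protein, Cilp (0.86), a matrix protein that binds TGF-β, and Dpysl3 (0.86), a cytoskeletal protein. Their r without PBS replicate 1 was 0.81, 0.79, 0.79, 0.80 and 0.79, and Thbs4, a thrombospondin of tendon and muscle, then ranked first (0.86).

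Genes around the members passed at week 4 against PBS, where 29.4% of all genes were called. This share was 30.5% when PBS replicate 1 was dropped. It fell to 5.64% once lane 2 entered the fit as a term, and to 0.894% when that lane's libraries were removed. The last fit keeps 3 of the 8 week 4 libraries, which lowers the power of the test. How much of the fall comes from this was not tested. The lists are short, and the counts of glycoproteins and metalloproteinases lie near the 29.4%. Whether any list differs from the share over all genes was not tested. Of 41 other matrix glycoproteins 7 rose and 6 fell. Among them Nov, which like Ctgf belongs to the CCN family, fell from 5.91 ± 1.05 to 3.37 ± 0.953 CPM (mean ± SD, n = 8 and 8, log2 fold change -0.81 ± 0.17, adjusted p = 0.0011). Agrn, the agrin gene of the basement membrane and the neuromuscular junction, rose (0.46 ± 0.10, adjusted p = 0.0017), as did Lama5, a laminin chain (0.63, adjusted p = 0.0018), and Fbln5, a protein of elastic fibres (0.53, adjusted p = 0.0021). Of 11 proteoglycans 1 rose, Hspg2, which encodes perlecan of basement membranes (0.49, adjusted p = 0.027), and 1 fell, Kera, the keratocan gene (-1.78, adjusted p = 0.042). Without PBS replicate 1 the counts were 10 rising and 5 falling glycoproteins and 1 and 0 proteoglycans, and with a lane 2 term 2 and 4, and 0 and 2. With that term Hspg2 was at 0.07 (adjusted p = 0.78), Lama5 at 0.26 and Agrn at 0.28, none of them called, while Nov, Fbln5 and Kera were called at -0.80, 0.63 and -2.88.

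Metalloproteinases and their inhibitors rose in 5 of 15 genes and fell in 0. Adamts9, which cleaves versican, rose from 7.21 ± 2.41 to 20.3 ± 6.44 CPM (1.49 ± 0.20, adjusted p = 2.6e-06). Mmp9, the gelatinase of neutrophils and macrophages, rose from 2.2 ± 0.734 to 8.26 ± 3.21 CPM (1.89 ± 0.38, adjusted p = 0.00068), beside a sum of neutrophil markers of 59.9 to 290 CPM at week 4 and 1.38 to 17.9 in PBS, whose part was not tested. The list counted 5 and 0 without PBS replicate 1, and with a lane 2 term 2 higher and 1 lower.

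Of 13 collagens 2 rose and 4 fell. The basement membrane chains Col4a2 and Col4a1 rose (0.67 and 0.60, adjusted p = 0.004 and 0.018), while Col6a1 (-0.77, adjusted p = 0.018) and the fibrillar Col3a1 (-1.14, adjusted p = 0.025) fell. Without PBS replicate 1 the 2 rising calls stood beside 0 falling ones, and with a lane 2 term the counts were 0 and 8. Col4a2 and Col4a1 were then at 0.32 and 0.22 (adjusted p = 0.21 and 0.49). Of 13 fibroblast and fibro-adipogenic markers 6 fell and 0 rose, among them Dpt, which encodes dermatopontin (-0.96, adjusted p = 0.0043), and Clec3b, which encodes tetranectin (-0.80, adjusted p = 0.0046). This count was 5 without PBS replicate 1 and 3, with 1 higher, with a lane 2 term. With that term Dpt was at -0.66 and Clec3b at -0.58, neither of them called (adjusted p = 0.1 and 0.094).

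Of the pathways that act on the members, TGF-β genes rose in 7 and fell in 1 of 20, among them the receptors Tgfbr3 (0.69, adjusted p = 0.0012) and Tgfbr2 (0.51, adjusted p = 0.0029) and the shared mediator Smad4 (0.41, adjusted p = 0.0027). YAP and TEAD targets rose in 4 of 10, among them Amotl2 (0.65, adjusted p = 0.00081) and Ankrd1 (2.37, adjusted p = 0.021), the latter with an SD of 289 CPM around a week 4 mean of 141. Ankrd1 was at -0.30 without the lane 2 libraries (adjusted p = 0.95). Matrix receptors rose in 6 and fell in 1 of 19, among them Dag1, which encodes dystroglycan (0.52, adjusted p = 0.0027), and the integrin chain Itga1 (0.65, adjusted p = 0.0055). These 3 lists counted 9 and 1, 4 and 0, and 10 and 0 (higher and lower) without PBS replicate 1. With a lane 2 term they counted 0 and 1, 1 and 1, and 1 and 1, and without lane 2 libraries 0 in each direction for all 3. Without lane 2, week 4 keeps 3 libraries.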

How the data were processed

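Per the labels' protocols, TruSeq libraries were made from total RNA of the muscle, and 38 were analysed. Reads were aligned with HISAT2 to GRCm38.p5 and turned into a count per gene with HTSeq by the authors, per the submitters' processing notes, where versions and the strand setting do not appear. Deposited comparison tables, from DESeq2 per the same notes, list the authors' log2 fold changes and p-values, and are quoted only where named. They do not hold every gene, and each lists between 1 and 4313. Genes took 44.5% to 80.9% of the reads, and all other reads stayed out of library sizes. GENCODE M21 gave names, coordinates and exon lengths.

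The main test was the quasi-likelihood test of edgeR 4.0.16 (R 4.3.3) in a single fit of the 5 groups, with TMM scaling, filterByExpr at a minimum count of 10 and Benjamini-Hochberg adjustment over 14689 genes. An SE was obtained by dividing the log2 fold change by the square root of its F value. CPM refers to TMM-scaled library sizes. No pair of libraries within a group agreed within sampling noise (chi-square per degree of freedom at least 14.2). Correlations used log2 CPM and 100000 permutations (SciPy 1.17.1). The test was checked on simulated data. Alternatives used RLE or upper quartile scaling, other filters, lane terms, left-out libraries, DESeq2 1.42.0 and limma 3.58.1.

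The members and gene lists were chosen with earlier results of these data known. Beside the members, the text names up to 4 genes of each list with the smallest p at week 4 against PBS, and the 5 genes most like the members' profile.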

Additional observations from a re-analysis of the deposited data

Results flagged for a closer look

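Each member was examined in each group for a library far from the rest (Dixon's gap test at the 95% level), 50 tests in all. Chance flags about 1 in 20 where values are normally spread and the tests independent, but CPM is skewed and members were correlated. The 11 tests that flagged a library, each a high one, can therefore not be set against that rate. PBS replicate 1 was far above the other PBS libraries in 5 of them: Fn1 at 186 CPM (next 102), Postn at 162 (next 19.1), Bgn at 179 (next 60.2), Timp1 at 10.2 (next 1.83) and Ctgf at 60.7 (next 26.1). Week 2 replicate 3, on lane 2, was far above the rest of week 2 for Fn1 (150 CPM, next 69.7), Tnc (11.5, next 4.13) and Thbs1 (14.1, next 6.44). In week 3, replicate 8 was far above for Bgn (83.2, next 46.7) and replicate 1 for Thbs1 (50.5, next 20.6). In week 4, replicate 3 was far above for Postn (38.2, next 16.4).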

How the results depend on the processing

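No paired analysis was possible because sample numbers in the labels are never shared between groups. Leaving out PBS replicate 1 with lane 2, and leaving it out with a lane 2 term, were chosen after seeing the data. Of 2109 alternative values under 54 settings, covering the F tests of the members and a chosen part of their fold changes, 2010 kept direction and side of the threshold, 51 changed sign, 32 gained and 16 lost a call. Of the settings, 38 left out 1 library each, in or outside the groups compared, so many repeat nearly the same fit. The 2010 is therefore no measure of how robust the results are. Over all members and comparisons, 33 of 100 fold changes changed sign without PBS replicate 1 and lane 2, 26 without PBS replicate 1 and with a lane 2 term, 22 without lane 2, 18 without PBS replicate 1, 16 with a lane 2 term and 15 with voom. Of these, 0 were called before or after.

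Week 4 against PBS called 1 member (Postn) with a mean of at least 5 CPM (39.5% of the genes then tested), and 0 to 2 with 1 library left out. Week 4 against week 2 called 0 with a lane 2 term, a term for each lane, lane 2 libraries out, lanes 2 and 4 with a lane term, lane 4 alone, a change of at least 1.5 times, and PBS replicate 1 and lane 2 out. It called 3 with the groups alone (18.1% of all genes), 2 with voom (44.1%), and 1 to 2 with 1 library left out. Week 4 against week 1 called 0 under the same settings, lanes 2 and 4 with a term excepted. It called 0 with PBS replicate 1 out and a lane 2 term, and 2 with the groups alone (19.5% of all genes). The F test called 0 without lane 2, with or without PBS replicate 1. It called 2 with DESeq2 (28% of all genes), 2 with voom (44.4%), and 1 to 3 with 1 library left out.

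Sign changes at week 4 against PBS were as follows. Fn1 was at -0.55, -0.44 and -0.72 with a lane 2 term, a term for each lane and lane 2 out, and Thbs1 at -0.32, -0.18 and -0.77. Without PBS replicate 1 and lane 2, Fn1 was at -0.43, Thbs1 at -0.48 and Ctgf at 0.089. Without PBS replicate 1 and with a lane 2 term, Fn1 was at -0.25, Bgn at 0.0682, Thbs1 at -0.017, Timp1 at 0.65 and Ctgf at 0.17. Postn was at 0.14 with DESeq2, and voom gave Bgn 0.50 and Timp1 0.39. With 1 library left out the ranges were -0.19 to 0.37 for Fn1, -2.17 to 0.12 for Postn, -0.22 to 0.0333 for Sparc, -0.18 to 0.46 for Bgn, -0.0275 to 0.67 for Thbs1, -1.06 to 0.67 for Timp1 and -0.58 to 0.0341 for Ctgf. At week 1 against PBS, Postn was at 0.32 with DESeq2, 0.24 with voom, 0.39 without PBS replicate 1 and lane 2 and 0.10 without PBS replicate 1 and with a lane 2 term (-1.45 to 0.30 with 1 library left out), and Timp1 at 0.0753 without PBS replicate 1 and lane 2, where Bgn, Ctgf, Fbn1, Fn1 and Lum changed sign too, as did all of these but Fbn1 with voom. At week 3 Timp1 was at 0.60 and 0.62 under those 2 settings, and -1.27 to 0.63 with 1 left out. Against week 3, week 4 Thbs1 was at -0.0839, -0.0144, -0.68 and -0.58 with a lane 2 term, a term for each lane, lane 2 out and lane 4 alone, and -0.68 and -0.0836 in the 2 settings without PBS replicate 1. Against week 1, week 4 Timp1 was at -0.0941 and -0.0987 with lane 2 out and lane 4 alone, and -0.0944 without PBS replicate 1 as well. The cause was not tested.

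Over all genes, week 4 against PBS called 4315 (29.4%), 5.64% with a lane 2 term, and 93 with a term for each lane, 136 without lane 2 and 122 for a change of at least 1.5 times. Week 4 against week 2 called 3471, and 1590, 1106, 59 and 136 under these settings, and 0 on lane 4 alone, where 3 libraries of week 4 and 2 of week 2 remain. Without lane 2, too, week 4 keeps 3 libraries.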

Other observations

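Markers of other cells were counted at week 4 against PBS, where 29.4% of all genes were called. All 7 neutrophil markers rose, with the granule gene Ngp from 0.0267 ± 0.0441 to 6.23 ± 4.86 CPM (adjusted p = 3.1e-07) and S100a9, a subunit of calprotectin, at a log2 fold change of 4.97 (adjusted p = 7.2e-06, edgeR), and all 7 were also called without PBS replicate 1, when a lane 2 term was added and when the lane was left out. Of 10 endothelial markers 5 rose and 0 fell, among them Pecam1 (0.87, adjusted p = 3.4e-07), and 4 did with a lane 2 term. Of 10 pericyte and smooth muscle markers 2 rose, Notch3 (0.38, adjusted p = 0.031) and Pdgfrb (0.34, adjusted p = 0.047), and 0 with a lane 2 term. Of 9 tendon markers 2 fell, Scx (-0.91, adjusted p = 0.014) and Kera, and 1 with a lane 2 term.

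Of 16 macrophage and monocyte markers 2 rose and 3 fell, with Cd163 at 1.08 (adjusted p = 0.0056) and Ms4a7 at -1.23 (adjusted p = 0.026), while without PBS replicate 1 the counts were 10 and 0, with Ms4a7 at -0.07. With a lane 2 term they were 0 and 0, with Cd163 at 0.65 (adjusted p = 0.17). Of 5 platelet markers 1 fell, Pf4 (-1.16, adjusted p = 0.025), and 0 of the 4 tested without PBS replicate 1 did. Of 12 fibre markers 4 fell, among them the fast light chain gene Mylpf (-0.99, adjusted p = 0.01), and 0 with a lane 2 term. Of 9 cell cycle genes 2 fell, Aurka (-1.03, adjusted p = 0.00093) and Top2a (-1.67, adjusted p = 0.044), and 1 without PBS replicate 1, where Top2a was at 0.69 (adjusted p = 0.21). The macrophage, pericyte, tendon, platelet, fibre and cell cycle counts in the fit of all libraries are few and lie near the share over all genes.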
